A study of Homo sapiens with 6 samples.

Results

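The 9 genes described here belong to the machinery that releases paused RNA polymerase II, and they were followed in MOLM-13 cells treated with C646. They are the BET protein genes BRD2 and BRD3, the P-TEFb genes CDK9, CCNT1 and CCNT2, the genes of its inhibitory particle HEXIM1, LARP7 and MEPCE, and the super elongation complex scaffold AFF4. They were chosen by name, and all 9 were found by Entrez identifier among the 25420 genes of the tables. MOLM-13 is an established human acute myeloid leukaemia cell line, and C646 is an inhibitor of the acetyltransferases CBP and p300. Cells received 10 µM C646 or DMSO for 2 h, with 3 replicates of each, and both groups were given 100 µM 4-thiouridine (4sU) during the last 1 h. SLAM-seq reads incorporated 4sU as a T > C conversion, so that reads with such a conversion (T > C reads) stand for newly synthesized transcripts and all reads for total mRNA. The 3′ end libraries held 7252597 to 10225448 reads on 3′ UTRs, of which 477824 to 833410 were T > C reads.

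P-TEFb is the kinase CDK9 bound to a cyclin T, and it phosphorylates the polymerase and the factors that hold it near the start of genes. Much of it is kept inactive in the 7SK particle, where HEXIM1 blocks the kinase, LARP7 binds the 3′ end of 7SK RNA and MEPCE caps its 5′ end. BET proteins read acetylated histones and help to bring active P-TEFb to chromatin, AFF4 carries it within the super elongation complex, and transcription of HEXIM1 is known to respond when P-TEFb is released, for which it is used as a marker of the balance between the free and the bound kinase.

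Places are 1-based on GRCh38, and GENCODE release 44 places a UTR of that gene over each 3′ UTR read here. The 3′ UTR of BRD3 lies at chr9:134030324-134033589 on the minus strand and that of BRD2 at chr6:32980719-32981505 on the plus strand. The P-TEFb genes were read at chr9:127789544-127790773 (CDK9, plus), chr12:48688458-48694436 (CCNT1, minus) and chr2:134954549-134959345 (CCNT2, plus). HEXIM1 was read at chr17:45150271-45152101, LARP7 at chr4:112657328-112657592 and MEPCE at chr7:100433555-100434126, all on the plus strand, and AFF4 at chr5:132875379-132881058 on the minus strand. The annotated 3′ UTRs of BRD3 and HEXIM1 have an antisense gene (BRD3OS and HEXIM2-AS1) and that of MEPCE overlaps an unnamed gene model on its own strand (ENSG00000289690). The library kit keeps the strand of the RNA, but whether the counting used it is not given in the sources used here, so how many reads come from the antisense genes was not measured. Reads of the model on the strand of MEPCE cannot be told apart from those of MEPCE.

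The promoters of HEXIM1 and MEPCE are shown because HEXIM1 is the marker named above and MEPCE, its partner in the 7SK particle, had the largest fall of the members. Both are RefSeq windows of 300 bases around the start of the gene on GRCh38.p14, HEXIM1 at chr17:45148225-45148524 and MEPCE at chr7:100428540-100428839, both on the plus strand. Capitals mark a CCAAT box, a GC box (GGGCGG) or a TATA box (TATAAA) on either strand.
HEXIM1: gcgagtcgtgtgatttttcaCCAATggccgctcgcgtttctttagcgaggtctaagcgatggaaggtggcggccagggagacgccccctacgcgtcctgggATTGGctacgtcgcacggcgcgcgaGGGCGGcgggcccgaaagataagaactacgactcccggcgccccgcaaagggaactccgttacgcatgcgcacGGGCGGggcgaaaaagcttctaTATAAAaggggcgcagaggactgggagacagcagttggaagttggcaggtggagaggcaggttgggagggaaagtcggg
MEPCE: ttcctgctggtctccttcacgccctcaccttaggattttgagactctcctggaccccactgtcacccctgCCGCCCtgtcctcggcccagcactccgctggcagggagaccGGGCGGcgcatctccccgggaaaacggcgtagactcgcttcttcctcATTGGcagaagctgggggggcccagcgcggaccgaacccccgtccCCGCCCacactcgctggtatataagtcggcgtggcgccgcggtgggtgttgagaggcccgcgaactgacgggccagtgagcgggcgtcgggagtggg
HEXIM1 held 2 CCAAT boxes, 2 GC boxes and 1 TATA box, and MEPCE held 1 CCAAT box and 3 GC boxes. Over all 9 members the GC box was found in every promoter, against 45.0% of 35116 promoters of the same length, and the CCAAT box in 5 promoters, against 34.6%. The exact letters TATAAA were found in HEXIM1 alone among the members, against 11.5% of promoters. Other TATA-like spellings, such as tatataag in MEPCE, were not counted. The letters TGACGTCA were found in LARP7 (1.85% of promoters), CACGTG in CCNT1 and AFF4 (7.26%) and GAANNTTC in no member (6.77%). None of these motifs contains the letters of another. The members' promoters ranged from 57.7% (LARP7) to 85.0% (BRD3) in GC content, with a median of 58.7% over all promoters.

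The libraries matched their labels for cell type. All 11 myeloid markers were above 1 CPM in every library, with a sum of 3792 to 4072 CPM in DMSO and 3931 to 4284 CPM in C646. Of 15 markers of other cell types, only CD3D was above 1 CPM in every library and 9 had at most 3 reads in each. The sum over these 15 was 4.04 to 6.75 CPM in DMSO and 10.8 to 12.4 CPM in C646, with COL1A1, a collagen gene, at 1.5 and 6.27 CPM on average, and the part of these markers in the results was not tested. Across all genes the T > C share of reads was 8.74% to 8.86% in DMSO and 6.34% to 6.71% in C646, and conversions per 1000 covered T were 6.32 to 6.62 and 4.16 to 4.32. Counts were compared with edgeR's quasi-likelihood test, and p-values were adjusted by Benjamini-Hochberg over all tested genes. T > C reads were scaled by the TMM-scaled total of all reads, and the values in CPM are on that scale. Calls required an absolute log2 fold change of 1 or more together with an adjusted p-value of 0.01 or less. Nothing in the labels says that the replicates are separate cultures, so the p-values measure only the spread between these samples, which may be technical.

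In newly synthesized transcripts BRD3, CCNT1 and MEPCE fell in C646, and CCNT2, HEXIM1, LARP7 and AFF4 did not pass the test. The 3 falls among 7 tested members stand beside 33.0% of 7722 tested genes called lower, and no member rose beside 2.97% called higher. All 7 log2 fold changes were below 0, as were those of 82.9% of tested genes, with a median of −0.63 over the members and −0.83 over all genes (quartiles −1.46 and −0.25). In total mRNA MEPCE alone of 8 tested members was called, as lower, where 1.87% of 10835 genes were called lower and 5.92% higher. BRD2 could not be tested in either measure, and CDK9 was below the count filter in T > C reads.

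**Figure D1:**
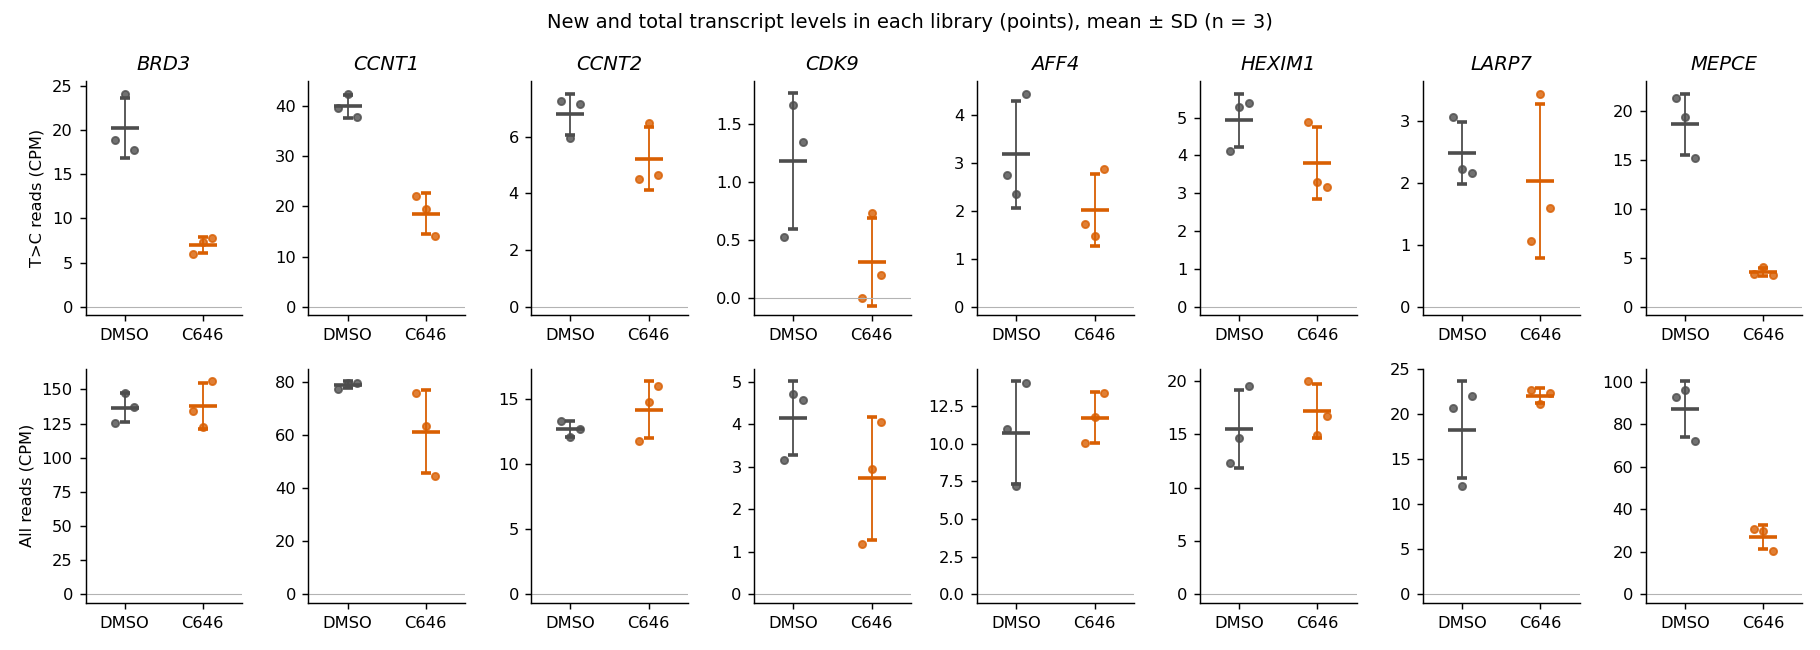
Scaled T > C reads (upper row) and all reads (lower row) of 8 members in CPM, with 1 point per library, a bar at the mean and error bars of 1 SD (n = 3), each gene on an axis of its own. T > C reads of BRD3, CCNT1 and MEPCE lay lower in all 3 C646 libraries than in any DMSO library, and of these the all reads of BRD3 overlapped between the groups.

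BRD3 encodes a BET protein that binds acetylated histones through its paired bromodomains. In DMSO replicates 1, 2 and 3 it had 179, 174 and 132 T > C reads, against 45, 60 and 78 in the C646 replicates in the same order. Scaled, they were 20.3 ± 3.39 CPM in DMSO and 7.01 ± 0.940 CPM in C646 (SD, n = 3). The highest C646 library, at 7.74 CPM, was under the lowest DMSO library, at 17.8 CPM. The log2 fold change was −1.52 (SE 0.23, adjusted p = 2.28e-06), a level of 0.349 of DMSO, and 23.2% of tested genes had a lower value. The call ended, at −0.69, when T > C reads were scaled by TMM or by DESeq2's size factors computed on themselves. All reads of BRD3 came to 1190, 1061 and 1020 in DMSO and 1016, 999 and 1570 in C646. They did not separate the groups, with 137 ± 10.9 and 138 ± 16.9 CPM and a log2 fold change of 0.011 (95% interval −0.28 to 0.30, adjusted p = 0.962). Multimapped reads were 3, 4 and 13 of the BRD3 reads in DMSO and 26, 32 and 34 in C646, and their part in the result was not tested.

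BRD2, the other BET gene followed here, gave almost no reads. Over its 6 annotated entries, 1 on chromosome 6 and 5 on alternative contigs of that chromosome, 1 read was counted in DMSO replicate 1 and 1 in C646 replicate 3, none of them a T > C read. A count of 0 allows up to 3 reads, or 0.298 to 0.416 CPM in these libraries, so no difference was detectable. Of 156 chromosome 6 genes with entries on 5 or more such contigs, 134 (85.9%) had at most 3 reads in each library, against 493 of 1090 (45.2%) without one. Whether the alternative contigs account for the low count of BRD2 was not tested, and its level in the cells cannot be read from these tables. BRDT, a BET gene known for its role in the testis, had 0 reads in every library.

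CCNT1 encodes cyclin T1, the main cyclin partner of CDK9. It had 376, 306 and 281 T > C reads in DMSO and 167, 159 and 142 in C646. Scaled, these were 40.0 ± 2.31 and 18.6 ± 4.08 CPM. All C646 libraries, at 14.1 to 22.1 CPM, lay under the DMSO libraries at 37.8 to 42.4 CPM. The log2 fold change was −1.11 (SE 0.19, adjusted p = 1.35e-05), a level of 0.463 of DMSO, and 37.5% of tested genes had a lower value. The call ended without C646 replicate 3, where the value was −0.94, and with scaling by all filtered reads, where it was −0.91, both short of the fold threshold. It also ended when T > C reads were scaled by TMM or by DESeq2's size factors computed on themselves, where the value was −0.27 in both and the adjusted p-value missed its threshold too. All reads of CCNT1 were 736, 575 and 592 in DMSO and 573, 518 and 451 in C646, or 79.0 ± 1.24 and 61.3 ± 15.6 CPM. The groups did not overlap (75.8 CPM at most in C646, 77.6 CPM at least in DMSO), but the log2 fold change of −0.37 did not pass the test (95% interval −0.74 to 0.00085, adjusted p = 0.118) and was −0.18 without C646 replicate 3.

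CCNT2, the gene of the other cyclin T, had 69, 43 and 53 T > C reads in DMSO and 34, 53 and 47 in C646. The groups overlapped at 6.79 ± 0.721 and 5.22 ± 1.11 CPM, with a log2 fold change of −0.38 (95% interval −0.98 to 0.22, adjusted p = 0.268). All reads were 126, 87 and 94 in DMSO and 89, 120 and 161 in C646, a log2 fold change of 0.16 (SE 0.21, adjusted p = 0.580). Over the libraries left out the values were −0.57 to −0.29 in T > C reads and 0.064 to 0.28 in all reads. Its reads without a T > C conversion, which hold RNA made before the labelling and new RNA with no conversion in the read, were 5.52 to 6.10 CPM in DMSO and 7.27 to 11.3 CPM in C646. Among the 7 members tested in T > C reads, only CCNT2 had all C646 libraries above DMSO in this measure, where 33.5% of the 7722 tested genes did so. Only MEPCE had all of them below, where 18.9% did so.

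CDK9, the kinase itself, was thinly covered. It had 5, 12 and 10 T > C reads in DMSO and 0, 6 and 2 in C646, and it was not tested in T > C reads. With 0.527 to 1.66 CPM in DMSO and 0 to 0.735 CPM in C646 the groups overlapped. Its all reads were 30, 34 and 34 in DMSO and 9, 24 and 41 in C646. C646 replicate 1 was the lowest library and C646 replicate 3 was within the DMSO range in CPM. The log2 fold change of all reads was −0.57 (95% interval −1.5 to 0.36, adjusted p = 0.340), an interval that holds 0 as well as falls past the threshold. It was −0.22 without C646 replicate 1 and −0.98 without C646 replicate 3.

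HEXIM1 encodes the protein that inhibits P-TEFb within the 7SK particle. It had 39, 38 and 40 T > C reads in DMSO, against 37, 27 and 32 in C646. Scaled to all reads, they were 4.11, 5.27 and 5.39 CPM in DMSO and 4.89, 3.31 and 3.17 CPM in C646. The groups overlapped because C646 replicate 1 exceeded DMSO replicate 1, and the means were 4.92 ± 0.705 and 3.79 ± 0.956 CPM. The log2 fold change was −0.38 (95% interval −1.08 to 0.32, adjusted p = 0.353), and −0.59 to −0.26 when single libraries were left out. It was less negative than that of most genes, as 70.3% of tested genes had a lower value. All reads of HEXIM1 were 117, 106 and 145 in DMSO and 151, 122 and 169 in C646, with 15.5 ± 3.67 and 17.2 ± 2.54 CPM and a log2 fold change of 0.15 (95% interval −0.31 to 0.62, adjusted p = 0.621). The all-read value was 0.0093 without DMSO replicate 1 and 0.36 without DMSO replicate 3. A rise of HEXIM1 was not detected in either measure, and the intervals hold values above 0 in both. With T > C reads scaled by TMM or by DESeq2's size factors computed on themselves, the T > C value turned to 0.46 and was not called either.

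MEPCE, the gene of the enzyme that caps 7SK RNA, had the largest fall of the members. It had 202, 140 and 113 T > C reads in DMSO and 25, 33 and 33 in C646. At 15.2 to 21.3 CPM in DMSO and 3.27 to 4.04 CPM in C646 the groups were well apart. The log2 fold change was −2.40 (SE 0.25, adjusted p = 6.11e-09), a level of 0.190 of DMSO, and 6.41% of tested genes had a lower value. MEPCE also fell in all reads, from 882, 695 and 537 in DMSO to 234, 243 and 207 in C646. The means were 87.2 ± 13 and 27.1 ± 5.70 CPM and the log2 fold change was −1.69 (SE 0.18, adjusted p = 2.31e-05). Only 0.332% of the genes tested in all reads had a lower value. Reads without a T > C conversion fell alongside, with 57.1 to 76.9 CPM in DMSO and 17.3 to 27.6 CPM in C646. As the libraries are bulk, fewer cells with the transcript and less of it per cell cannot be told apart.

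LARP7, which encodes the protein that binds and stabilizes 7SK RNA, had 29, 16 and 16 T > C reads in DMSO and 8, 28 and 16 in C646. C646 replicate 2, at 3.43 CPM, was the highest of all 6 libraries and C646 replicate 1, with 8 reads, the lowest. The log2 fold change was −0.30 (95% interval −1.30 to 0.70, adjusted p = 0.620). It rested on single libraries, with −0.0027 without C646 replicate 1 and −0.89 without C646 replicate 2. All reads were 196, 87 and 163 in DMSO and 171, 172 and 225 in C646, a log2 fold change of 0.27 (SE 0.22, adjusted p = 0.369), with DMSO replicate 2 lowest at 12.1 CPM. Without that library the value was 0.045.

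AFF4, the scaffold of the super elongation complex, had 26, 17 and 33 T > C reads in DMSO and 13, 12 and 29 in C646. The groups overlapped at 3.18 ± 1.11 and 2.02 ± 0.751 CPM, and the log2 fold change was −0.63 (95% interval −1.56 to 0.30, adjusted p = 0.239). It was −0.32 without DMSO replicate 3 and −0.99 without C646 replicate 3. In all reads AFF4 had 104, 52 and 104 in DMSO and 76, 96 and 135 in C646, with a log2 fold change of 0.13 (SE 0.26, adjusted p = 0.728), and −0.082 to 0.37 when single libraries were left out.

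**Figure D2:**
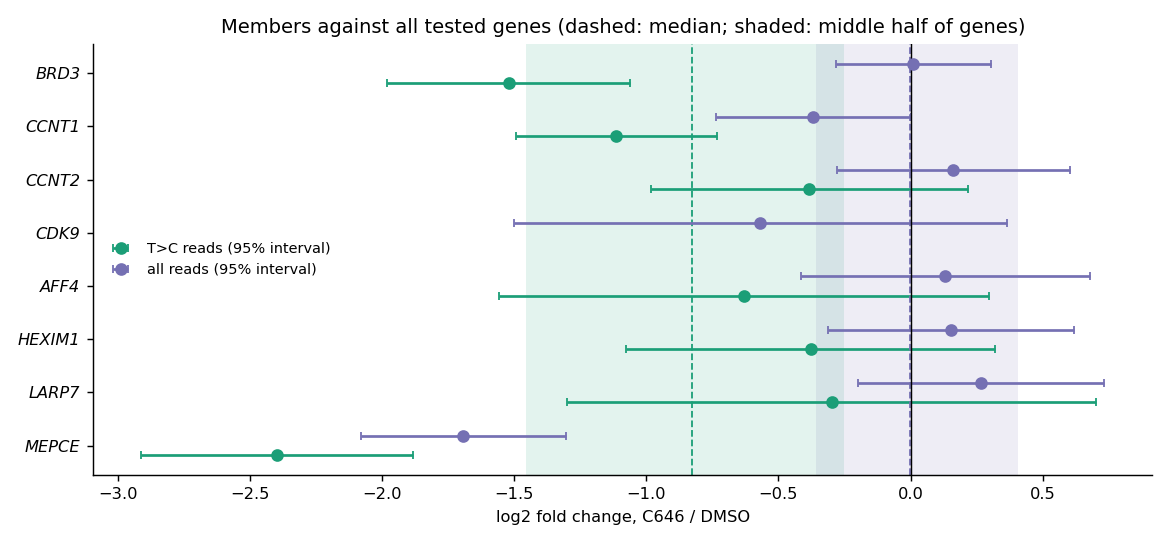
Log2 fold change of C646 over DMSO for 8 members in T > C reads (green) and all reads (purple), with 95% intervals, dashed lines at the medians of all tested genes and bands between their quartiles. MEPCE lay lowest in both measures, at −2.40 and −1.69, whereas the intervals of CCNT2, HEXIM1, LARP7 and AFF4 included 0 in both.

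Counting which members' scaled values did not overlap gave the same 3 in T > C reads, all with C646 below, where 55.8% of tested genes had C646 wholly below DMSO and 6.46% wholly above. In all reads CCNT1 and MEPCE had C646 wholly below, where 23.1% of genes did so and 24.5% lay wholly above.

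The T > C share of a gene's own reads needs no scaling between libraries. In DMSO it ranked the members by the share of their reads that carried the label. CCNT2 (53.5% ± 3.64) and CCNT1 (50.6% ± 2.91) stood highest and overlapped, and 95% of the 7703 genes averaging 10 or more T > C reads had a lower share than CCNT1. HEXIM1 (32.3% ± 4.24) and AFF4 (29.8% ± 4.19) followed and overlapped with each other, with 85.3% and 82.9% of genes lower. MEPCE (21.4% ± 1.41) came next, and BRD3 (14.8% ± 1.74) and LARP7 (14.3% ± 4.31) overlapped near the median gene at 13.4%. Conversions per 1000 covered T gave a similar order, from 41.0 ± 5.00 in CCNT2 to 8.07 ± 3.40 in LARP7, with AFF4 (28.1 ± 10.1) ahead of HEXIM1 (24.4 ± 1.52) and a median of 9.15 over genes.

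With C646 the share was wholly below DMSO in 6 of 7 members, where 64.6% of 7709 genes were and 2.17% were wholly above, and LARP7 overlapped. The same held for conversions per covered T, again in 6 of 7 members, with 65.6% of genes wholly below and 1.69% wholly above. BRD3 was at 12.9% to 16.4% in the DMSO libraries and at 4.43% to 6.01% in C646. CCNT1 was at 47.5% to 53.2% in DMSO and at 29.1% to 31.5% in C646. HEXIM1, at 33.3%, 35.8% and 27.6% in DMSO, was at 24.5%, 22.1% and 18.9% in C646, so its libraries were lower here although its scaled T > C reads overlapped. In the model of T > C against other reads, 2 of the 7 members, BRD3 and CCNT1, were called lower, where 38.3% of 7722 genes were called lower and 0.79% higher. Their log2 odds changes were −1.68 (SE 0.22, adjusted p = 1.55e-06, edgeR) and −1.23 (SE 0.24, adjusted p = 0.000163, edgeR). MEPCE was not called, at −0.82 (SE 0.29, adjusted p = 0.0186, edgeR), and its reads without a conversion were lower in C646 as well. CCNT2 (−0.98, adjusted p = 0.0555, edgeR), HEXIM1 (−0.76, adjusted p = 0.111, edgeR), AFF4 (−1.02, adjusted p = 0.0749, edgeR) and LARP7 (−0.72, adjusted p = 0.209, edgeR) did not pass. The LARP7 value was −0.36 without C646 replicate 1 and −1.34 without C646 replicate 2, and passed in neither. The median over all tested genes was −1.0 and that over the members −0.98.

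**Figure D3:**
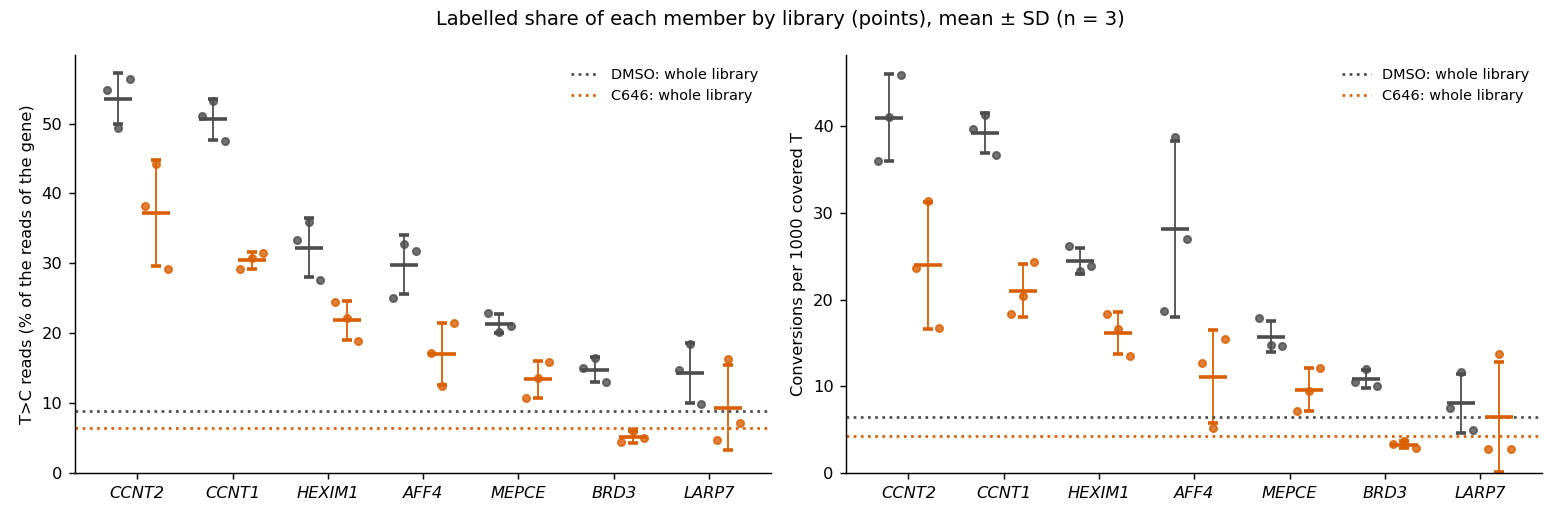
T > C share of each gene's reads in percent (left) and conversions per 1000 covered T (right) in every library, with the mean and SD (n = 3) for DMSO (grey) and C646 (orange) and dotted lines at the mean of whole libraries. In 6 of the 7 members drawn the C646 points lay under every DMSO point in both panels, and in LARP7 they overlapped.

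HEXIM1 was then set against the P-TEFb genes within each library, as the ratio of its reads to the summed reads of CDK9, CCNT1 and CCNT2. In T > C reads the ratio was 0.0867, 0.105 and 0.116 in DMSO and 0.184, 0.124 and 0.167 in C646. All C646 values were above DMSO, with means of 0.103 ± 0.0150 and 0.158 ± 0.0311 and a mean log2 difference of 0.62. CCNT1 made up most of the denominator and fell, whereas HEXIM1 did not pass the test, so the ratio describes unequal change and does not say that HEXIM1 rose. In all reads the ratio overlapped, at 0.131, 0.152 and 0.201 in DMSO and 0.225, 0.184 and 0.259 in C646.

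LARP7 and MEPCE together, over the P-TEFb genes, gave 0.513, 0.432 and 0.375 in DMSO and 0.164, 0.280 and 0.257 in C646 for T > C reads. For all reads the ratio was 1.10 ± 0.120 in DMSO and 0.631 ± 0.0292 in C646, again with no overlap. MEPCE supplied most of the reads of this sum in DMSO, and the fall of the ratio was that of MEPCE alone. Taken singly, an alternative chosen after seeing the data, MEPCE over the P-TEFb genes was 0.388 ± 0.0602 in DMSO and 0.150 ± 0.0243 in C646 in T > C reads and 0.911 ± 0.143 and 0.344 ± 0.0253 in all reads, wholly below in both. The LARP7 ratio in all reads was 0.220, 0.125 and 0.226 in DMSO and 0.255, 0.260 and 0.345 in C646, wholly above, with a log2 difference of 0.63 that was 0.35 without DMSO replicate 2. LARP7 itself was not called in all reads, so this ratio too describes unequal change and does not say that LARP7 rose. In T > C reads the LARP7 ratio overlapped, at 0.0518 ± 0.0110 and 0.0840 ± 0.0443. The ratio of CCNT1 to CCNT2 in T > C reads was 5.45, 7.12 and 5.30 in DMSO and 4.91, 3.00 and 3.02 in C646, wholly below, and in all reads it overlapped at 6.25 ± 0.386 and 4.52 ± 1.83, with a log2 difference of −0.55 that was −0.24 without C646 replicate 3 and −0.84 without C646 replicate 1. No test was run on these ratios, and none was formed between BRD2 and BRD3 because BRD2 had so few reads.

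**Figure D4:**
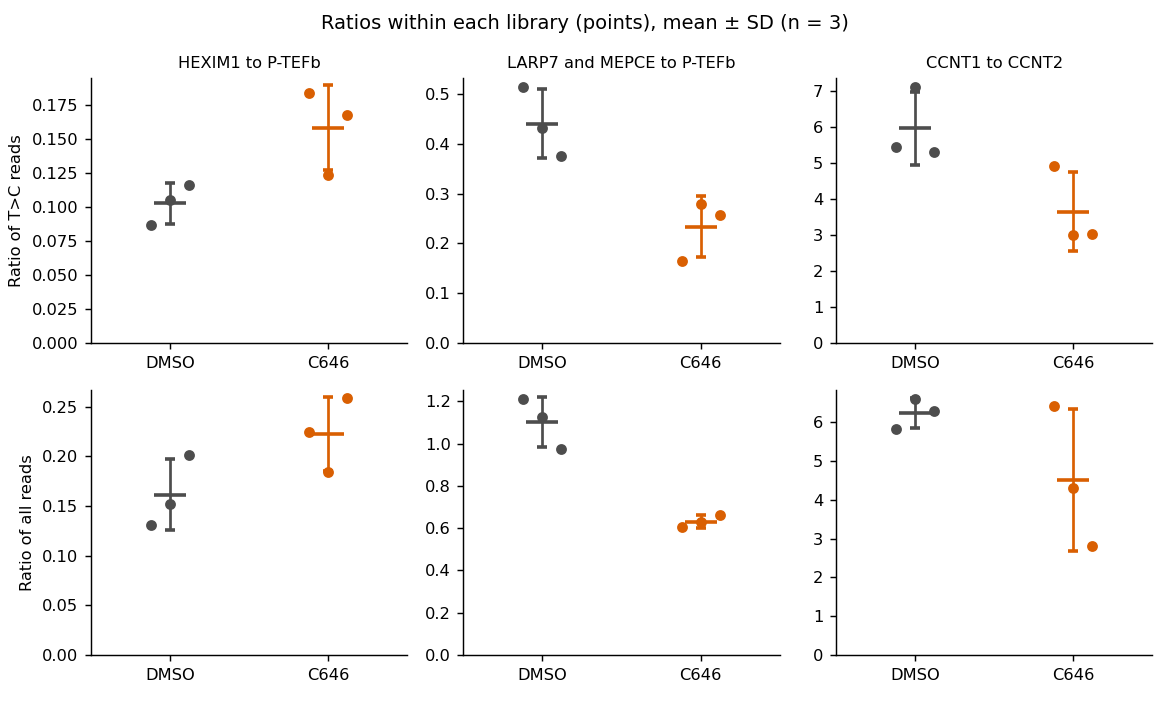
Ratios of read counts within each library (points), with the mean and SD (n = 3), for T > C reads (upper row) and all reads (lower row). HEXIM1 to P-TEFb was higher in C646 in T > C reads, and LARP7 with MEPCE to P-TEFb, a sum made up mostly of MEPCE in DMSO, was lower in both rows.

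The direction of the smaller changes depended on how T > C reads were scaled. With TMM computed on the T > C reads themselves, which sets the typical gene to no change, the median of all tested genes moved from −0.83 to 0.011 and the calls from 2548 lower and 229 higher to 596 lower and 717 higher. MEPCE stayed called at −1.56, while BRD3 at −0.69 and CCNT1 at −0.27 did not. HEXIM1 (0.46), CCNT2 (0.45), LARP7 (0.53) and AFF4 (0.19) turned positive without being called. Relative to the typical gene, then, MEPCE, BRD3 and CCNT1 were lower and these 4 were higher, but of these only the MEPCE value passed the test on this scale. The scaling that sets the total of filtered reads as the standard, reads outside 3′ UTRs included, kept MEPCE (−2.19) and BRD3 (−1.31) called. In all reads that scaling gave 90 lower and 1014 higher calls in place of 203 and 641, and MEPCE alone remained called among the members.

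**Figure D5:**
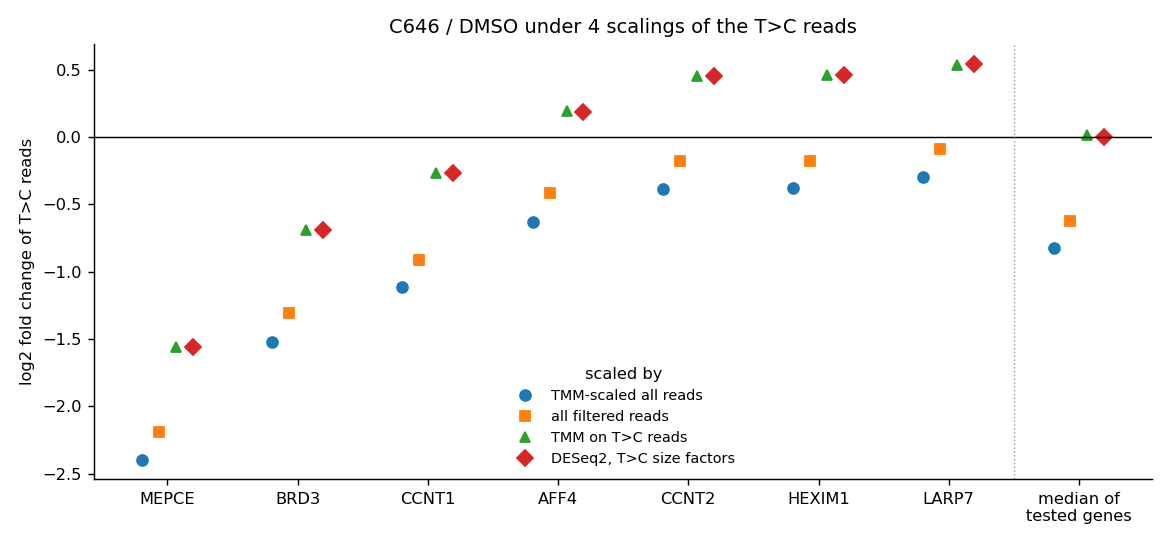
Log2 fold change of T > C reads, C646 over DMSO, for 7 members and for the median of all tested genes, with 1 marker for each of 4 ways of scaling. MEPCE, BRD3 and CCNT1 were below 0 on every scale shown, and AFF4, CCNT2, HEXIM1 and LARP7 were below 0 when scaled by all reads and above 0 when scaled by T > C reads.

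The genes whose pair of fold changes lay nearest to that of HEXIM1, among 2843 genes averaging 50 or more T > C reads per library, were ENY2, NSFL1C, NKIRAS2, GCC1 and AP1S3. Their log2 fold changes ranged from −0.36 to −0.40 in T > C reads and from 0.15 to 0.18 in all reads, at distances of 0.015 to 0.025 from HEXIM1. The SEs of HEXIM1 itself, 0.34 and 0.22, were wider than these distances, so which genes are nearest is uncertain. HEXIM1 averaged 39 T > C reads in DMSO and 32 in C646, below the minimum of 50 set for the others.

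Beyond the members, 40 other genes of elongation control were read from the same fits. In T > C reads 9 of 30 tested were called lower and 0 higher, beside 33.0% and 2.97% over all genes, with a median of −0.60 beside −0.83. Values below 0 were found in 26 of the 30, where 82.9% of all tested genes had them. Of the 9 called lower, ELL and MLLT1 belong to the super elongation complex. ELL, its elongation factor, had 167, 105 and 96 T > C reads in DMSO and 17, 7 and 27 in C646, a log2 fold change of −2.94 (SE 0.32, adjusted p = 9.47e-09, edgeR). MLLT1, its histone reader also known as ENL, went from 145, 63 and 106 to 17, 30 and 23 T > C reads (−2.23, SE 0.30, adjusted p = 5.99e-07, edgeR). In T > C reads both were wholly lower in C646, and AFF4 of the same complex overlapped between the groups. Neither ELL nor MLLT1 was called in all reads, with log2 fold changes of −0.57 and −0.21.

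DDX21, an RNA helicase reported to free P-TEFb from 7SK, went from 1296, 1076 and 808 to 226, 280 and 337 T > C reads, a log2 fold change of −2.01 (SE 0.16, adjusted p = 1.63e-11, edgeR). NELFCD, a subunit of the pausing factor NELF, went from 94, 70 and 76 to 17, 32 and 29 (−1.71, SE 0.30, adjusted p = 2.32e-05, edgeR), and its call ended, at −0.88, with TMM on the T > C reads. Neither gene was called in all reads, with log2 fold changes of −0.38 for DDX21 and −0.27 for NELFCD. By group, the lower calls were 2 of 5 super elongation complex partners, 2 of 6 genes associated with 7SK, 2 of 5 DSIF and NELF genes, 3 of 11 PAF1 complex and elongation factor genes and 0 of 3 other transcription kinase genes, each beside the 33.0% of all tested genes called lower.

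In all reads 0 of 35 tested genes of the 40 were called lower and 5 higher, beside 1.87% and 5.92% over all genes. These 5, named after their values were seen, were MNAT1 (3.01) and CCNH (1.80), partners of CDK7, EAF2 (1.94) and AFF1 (1.02) of the super elongation complex, and the elongation factor gene TCEA1 (1.13), given as log2 fold changes. MNAT1 rested on 13, 3 and 5 reads in DMSO, near the floor of 3 reads, against 47, 34 and 105 in C646, and its value ranged from 2.58 to 3.64 over the libraries left out. CCNH ranged from 1.55 to 2.01 and EAF2 from 1.68 to 2.22. The call of AFF1 ended without DMSO replicate 2 or 3 or C646 replicate 2 or 3, over a range of 0.78 to 1.38 for the libraries left out. That of TCEA1 ended without DMSO replicate 2 or C646 replicate 2 or 3 (0.81 to 1.32) and in DESeq2. None of these 5 genes was called higher in T > C reads. There AFF1 was at −0.24, TCEA1 at 0.016 and EAF2 at 1.70 (adjusted p = 0.0271, edgeR). MNAT1 and CCNH were below the count filter in T > C reads. CCNH averaged 1.77 CPM of these reads in DMSO and 0.694 CPM in C646, and MNAT1 0.297 and 0.869 CPM. CDK7 itself had 0 reads in every library. In the T > C odds, 15 of 30 tested genes of the 40 were lower and 0 higher, beside 38.3% and 0.79% over all genes, with a median of −1.11 beside −1.0.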

How the data were processed

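MOLM-13 libraries of 3 DMSO and 3 C646 replicates were analysed. With SLAM-Dunk v0.4.1 the authors mapped reads to GRCh38, and they deposited, per 3′ UTR of a RefSeq and Ensembl annotation, raw counts of all, T > C and multimapped reads and of conversions. They also deposited the coverage of T positions as an unnormalized signal and CPM scaled by all filtered reads, from which the filtered totals were computed here. The deposited T > C reads include reads with 1 conversion, whereas the study's own calls required at least 2. No library without 4sU was used here, so the T > C background was not measured. Entries were summed per gene, and symbols matched 25310 of 25420 Entrez identifiers.

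Counts were tested with edgeR 4.0.16 (filterByExpr, glmQLFit, glmQLFTest) in R 4.3.3 over all 6 libraries, without a block. The odds model used T > C and other reads, with terms for the library and for T > C under treatment. Depth sets the precision: LARP7, HEXIM1 and AFF4 rested on 8 to 40 T > C reads per library, and the counting of PCR copies without molecular identifiers adds error that a floor of 3 reads does not cover. On simulated T > C counts of 7626 genes, 100% of log2 changes of 2 and 72% of log2 changes of 1 were recovered. These changes were planted only in genes averaging 50 or more T > C reads per library, with a fixed spread between libraries. Recovery at the depth of LARP7, HEXIM1 and AFF4 was therefore not measured. Summaries used pandas 2.3.3 and numpy 2.4.6 in Python 3.11.15, and plots matplotlib 3.10.9.

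The members and all gene lists were chosen with earlier results of these data known. Named beside the members were, of the other elongation genes, at most the 4 largest falls and 4 largest rises called in T > C reads among genes averaging 50 or more T > C reads per library, every member of a list of 2 or fewer, and the 5 genes nearest HEXIM1. MNAT1, CCNH, EAF2, AFF1 and TCEA1 are outside this rule and were named after their values were seen, as the 5 called higher in all reads. The alternatives were other scalings, DESeq2 1.42.0, other count filters, other ways of summing entries, leaving out each library and a replicate block.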

Additional observations from a re-analysis of the deposited data

How the results depend on the processing

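Of the values of named genes under the alternatives, 497 kept direction and call, 16 kept the direction but not the call and 12 reversed. T > C reads scaled by TMM on themselves, or by DESeq2 1.42.0 with size factors from T > C reads, reversed CCNT2 (0.45 and 0.45 on the log2 scale), HEXIM1 (0.46 and 0.46), LARP7 (0.53 and 0.54) and AFF4 (0.19 and 0.19), and gave 596 and 543 genes called lower and 717 and 683 called higher in place of 2548 and 229. The change of scale is the construction of that alternative. A minimum of 50 reads per library on average tested fewer genes and gave 1038 lower and 125 higher in T > C reads and 1189 lower in the odds, in place of 2958. In all reads, scaling by all filtered reads gave 90 lower and 1014 higher. BRD3, at 0.011 in all reads, turned to −0.046 without DMSO replicate 1, −0.089 without C646 replicate 3 and −0.0059 with plain totals (−0.089 to 0.089 over the libraries left out), and AFF4 turned to −0.082 without DMSO replicate 2 (−0.082 to 0.37). Leaving out each library gave 1990 to 2603 lower and 206 to 263 higher calls in T > C reads, 119 to 319 lower and 447 to 726 higher in all reads, and 2140 to 2949 lower in the odds. For all reads, the calls lower were 119 without DMSO replicate 2 and 319 without C646 replicate 1. The cause was not tested. The log2 difference of LARP7 with MEPCE to P-TEFb, −0.94 in T > C reads and −0.80 in all reads, was 0.56 and 0.63 for LARP7 alone and −1.38 and −1.39 for MEPCE alone, an alternative chosen after seeing the data. For LARP7 alone it was 1.02 without C646 replicate 1 and 0.18 without C646 replicate 2 in T > C reads, and 0.35 without DMSO replicate 2 in all reads.

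Same-numbered DMSO and C646 libraries deviated together with correlations of 0.030 to 0.065 in T > C reads and −0.0014, 0.14 and 0.23 in all reads, so the numbers were not taken as pairs. With the replicate block 2586 genes were lower and 226 higher in T > C reads, 232 and 700 in all reads, and 2762 and 57 in the odds. In T > C reads every library correlated best with the library of its own number, which in all reads did not hold. The block changed no call among the members. CDK9 was too thinly covered in T > C reads to be tested, and changes of LARP7, HEXIM1, AFF4 and CCNT2 below the width of their intervals were not detectable.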
